A study of Mus musculus with 2 samples.

Results

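The calcium/calmodulin-dependent kinase and calcineurin genes described here are 10 named genes of the 43346 gene rows of the deposited tables, or of 21474 protein-coding genes. They were Camk2a, Camk2b, Camk2d and Camk2g, which encode the alpha, beta, delta and gamma subunits of CaM kinase II (CaMKII), the further kinase genes Camk4, Camkk2 and Camkv, and the calcineurin genes Ppp3ca, Ppp3cb and Ppp3r1. They were chosen by name, and each was found through its gene identifier in both libraries. RNA was sequenced from 2 areas of layer 5 of the cerebral cortex of a male wild-type C57Bl6 mouse aged 8 months, entered in the source label as strain B6NCrl. Each area measured 8000 square microns, was taken by laser capture and was entered as 50 cells, and the libraries were of the Smart-seq type with spike-in RNA. The labels name no treatment and no second genotype, so there is 1 group of 2 libraries, called replicate 1 and replicate 2. The labels number them as biological replicates but give both the same donor, so the spread between them is that between areas of 1 animal and may be partly technical. With 1 library per area no test of a difference was possible, since the smallest two-sided exact sign-flip p for 2 libraries is 0.5.

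Calcium that enters a neuron through glutamate receptors and voltage-gated channels binds calmodulin, and calcium-loaded calmodulin switches on both kinases and a phosphatase. CaMKII subunits assemble into a ring-shaped holoenzyme that stays active after the calcium signal through autophosphorylation and strengthens synapses, while CaM kinase IV acts in the nucleus on the transcription factor CREB. Calcineurin removes phosphate from many of the same synaptic proteins; it needs a catalytic A subunit, encoded by Ppp3ca or Ppp3cb in brain, and the calcium-binding B subunit encoded by Ppp3r1.

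Several of these genes differ from each other, and between their own transcripts, by short coding exons, whose sequences are given first because the results on transcripts turn on them. All are transcript-sense sequences on GRCm38 (mm10), 5′ to 3′, read from the GENCODE M21 transcripts. In CaMKII the kinase domain and the hub that builds the ring are joined by a variable linker, and a 33-base exon of 11 codons can be added there. In the delta and gamma genes it adds the basic stretch that is known as the nuclear localisation signal of the delta B and gamma A variants. The exon lies at chr3:126802937-126802969 on the plus strand in Camk2d and at chr14:20747819-20747851 on the minus strand in Camk2g. Capitals mark the 26 of 33 bases that are the same in both.
Camk2d 33-base exon: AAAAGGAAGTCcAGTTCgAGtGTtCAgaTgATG
Camk2g 33-base exon: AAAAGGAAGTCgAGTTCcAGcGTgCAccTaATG
Camk2b also has an alternative exon of 33 bases, at chr11:5989936-5989968 on the minus strand, shown without capitals because it shared only 7 of 33 bases with the Camk2d exon and 9 of 33 with the Camk2g exon.
Camk2b 33-base exon: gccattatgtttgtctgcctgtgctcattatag

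Other linker exons are related between the genes. The 45-base exon of Camk2b at chr11:5981070-5981114 on the minus strand and the 42-base exon of Camk2d at chr3:126808208-126808249 on the plus strand had 34 identical bases in a global alignment of 45 columns. The 72-base exon of Camk2b at chr11:5982501-5982572 and the 69-base exon of Camk2g at chr14:20745792-20745860, both on the minus strand, had 51 identical bases in 77 columns. The 60-base exon of Camk2d at chr3:126805857-126805916 on the plus strand had 43 identical bases in 72 columns with the Camk2b exon of 72 bases. They are shown in lower case with nothing marked.
Camk2b 45-base exon: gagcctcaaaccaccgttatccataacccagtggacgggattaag
Camk2d 42-base exon: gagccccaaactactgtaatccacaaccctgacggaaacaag
Camk2b 72-base exon: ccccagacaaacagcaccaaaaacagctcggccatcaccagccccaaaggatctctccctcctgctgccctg
Camk2g 69-base exon: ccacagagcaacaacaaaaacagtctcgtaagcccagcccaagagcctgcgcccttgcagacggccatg
Camk2d 60-base exon: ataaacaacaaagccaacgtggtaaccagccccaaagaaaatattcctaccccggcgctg

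Both catalytic calcineurin genes have a 30-base alternative exon of 10 codons toward the C-terminal end of the protein. It lies at chr3:136932011-136932040 on the plus strand in Ppp3ca and at chr14:20503247-20503276 on the minus strand in Ppp3cb, and capitals mark the 26 of 30 bases that are the same in both.
Ppp3ca 30-base exon: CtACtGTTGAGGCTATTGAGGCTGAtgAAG
Ppp3cb 30-base exon: CcACaGTTGAGGCTATTGAGGCTGAaaAAG
Ppp3cb transcripts also differ at the start of an exon of 85 bases, which in other transcripts begins 3 bases later. Its first 30 bases, at chr14:20509471-20509500 on the minus strand, are shown with the skipped bases in capitals.
Ppp3cb tandem acceptor: TAGgttcagctgcagcccggaaagaaatca

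Levels are given as TPM, the authors' deposited measure of transcripts per transcript length, scaled to the same sum in each library, and read numbers as their expected counts, which are estimates because reads shared between features are divided. The libraries held 26059117 expected counts in replicate 1 and 28276843 in replicate 2, and the 10 genes summed to 1965 TPM in replicate 1 and 1999 in replicate 2. All 10 genes were above 1 TPM in both libraries, and the order of their mean levels spanned Ppp3r1 at 792 ± 36.7 TPM down to Camk2d at 13.2 ± 10.3 TPM (SD, n = 2 areas). Between neighbours in that order the values of both areas overlapped for 2 pairs, Camk2g with Ppp3cb and Camkv with Camkk2. Positions of genes below are GRCm38 (mm10) coordinates from GENCODE M21. In dissected tissue, fewer cells of a type and less RNA per cell cannot be told apart.

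**Figure D1:**
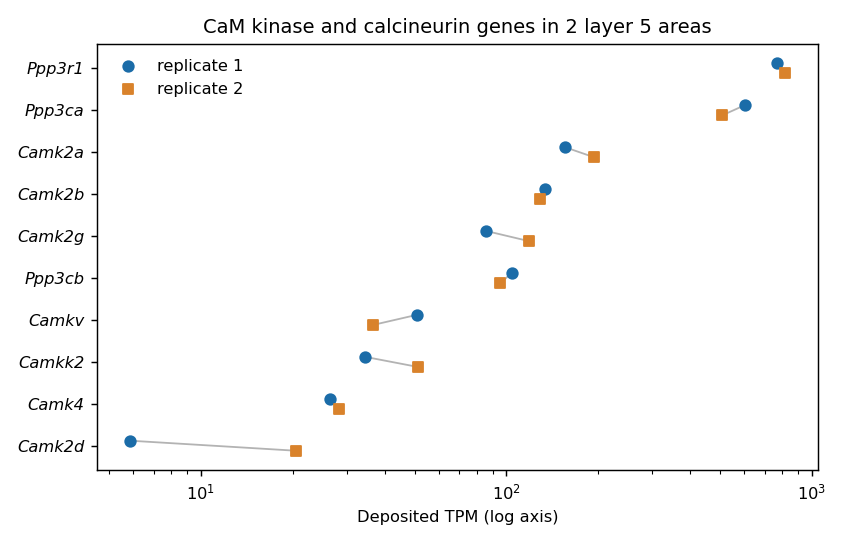
Deposited TPM (log axis) of the 10 genes in replicate 1 (circles) and replicate 2 (squares), in the order of their mean; lines join the areas of 1 gene. Ppp3r1 and Ppp3ca stand above the other 8 genes in both areas, and Camk2d has the widest gap, at 5.86 TPM in replicate 1 and 20.5 in replicate 2.

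Of the CaMKII genes, Camk2a encodes the alpha subunit, the best known kinase subunit of forebrain excitatory neurons (ENSMUSG00000024617.12, chromosome 18 from 60925618 to 60988152, plus strand). Camk2a was listed at 155 TPM in replicate 1 and 194 in replicate 2, with 13911 and 14767 expected counts. Its share of the library's counts was nearly equal, with a ratio of replicate 1 to replicate 2 of 1.02 (exact 95% Clopper-Pearson interval 0.999 to 1.05). These intervals cover counting error only, because reads carry no molecular identifiers. The TPM difference of Camk2a came with the annotated fragment Camk2a-207, an entry of 530 bases that is open at both ends. It was given 22.6 TPM in replicate 1 and 59.1 in replicate 2, and it shares 452 of its 530 bases with the full-length Camk2a-203. Without that fragment Camk2a stood at 133 TPM in replicate 1 and 134 in replicate 2 (mean 134 ± 1.15, SD, n = 2).

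Camk2b encodes the beta subunit, which also bundles actin filaments (ENSMUSG00000057897.10, chromosome 11 from 5969644 to 6066362, minus strand). It stood at 134 TPM in replicate 1 and 129 in replicate 2 (mean 131 ± 3.72). Camk2b was below Camk2a in both areas as the genes were deposited, while without the fragment Camk2a-207 the ranges of both genes overlapped. Camk2g encodes the gamma subunit, described as a carrier of calmodulin to the nucleus (ENSMUSG00000021820.12, chromosome 14 from 20734875 to 20794088, minus strand). It was at 86.0 TPM in replicate 1 and 118 in replicate 2, a count ratio of 0.762 (0.738 to 0.786).

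Camk2d encodes the delta subunit, the main CaMKII of the heart (ENSMUSG00000053819.12, chromosome 3 from 126596302 to 126846326, plus strand). It was the least abundant of the 10 genes, at 5.86 TPM in replicate 1 and 20.5 in replicate 2, with 410 and 1620 expected counts. The ratio of its share of counts was 0.275 (exact 95% interval 0.246 to 0.306), so replicate 1 had the lower share by far more than counting error. It ranked 7926 among protein-coding genes in replicate 1 and 4429 in replicate 2.

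Within the CaMKII family, Camk2a made up 40.8% of the summed TPM in replicate 1 and 41.97% in replicate 2 (41.4% ± 0.85, SD, n = 2). Camk2b made up 35.1% in replicate 1 and 27.9% in replicate 2, and Camk2g 22.6% in replicate 1 and 25.7% in replicate 2. Camk2d held the smallest share in both areas, at 1.54% in replicate 1 and 4.44% in replicate 2. The share of Camk2a depended on the measure: it was 35.5% over complete coding transcripts alone and 43.9% in expected counts scaled to library totals, which are not per length.

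The other kinase genes were below Camk2a, Camk2b and Camk2g but above Camk2d in mean TPM, which is per length. Camk4 encodes CaM kinase IV (ENSMUSG00000038128.6, chromosome 18 from 32934931 to 33191228, plus strand) and was at 26.5 TPM in replicate 1 and 28.3 in replicate 2 (mean 27.4 ± 1.28). Its 6984 and 7714 expected counts were above those of Ppp3cb, which had 6684 and 6272, although Ppp3cb was at 104 and 95.6 TPM. The transcript behind the Camk4 value is 12331 bases long in the deposited tables and 2717 bases long in GENCODE M21. With the shorter length and nothing else changed, its level would be 124 TPM in replicate 1 and 132 in replicate 2, so the rank of Camk4 by TPM rests on the transcript model. Where along that model the reads lay is not given in the tables.

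Camkk2 encodes CaM kinase kinase 2, which activates CaM kinases I and IV and AMP-activated kinase (ENSMUSG00000029471.9, chromosome 5 from 122731170 to 122779409, minus strand). It was at 34.4 TPM in replicate 1 and 51.2 in replicate 2, a count ratio of 0.706 (0.677 to 0.737). Camkv encodes a calmodulin-binding pseudokinase that lacks catalytic activity (ENSMUSG00000032936.9, chromosome 9 from 107935674 to 107949691, plus strand). Camkv went the other way, with 50.8 TPM in replicate 1 and 36.6 in replicate 2, and a count ratio of 1.46 (1.39 to 1.55). Both differences were beyond counting error, as was common between these libraries. The means of the 2 genes did not separate, at 42.8 ± 11.8 TPM for Camkk2 and 43.7 ± 10.1 TPM for Camkv (SD, n = 2).

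Of the calcineurin genes, Ppp3r1 and Ppp3ca stood above the other 8 genes, while Ppp3cb was in the range of Camk2g. Ppp3r1, the B subunit gene (ENSMUSG00000033953.10, chromosome 11 from 17159263 to 17200375, plus strand), was at 766 TPM in replicate 1 and 818 in replicate 2. It ranked 123 among protein-coding genes in replicate 1 and 102 in replicate 2, and its count ratio was 0.990 (0.978 to 1.00). Ppp3r1 overlaps Wdr92 on the same strand, which held 272 counts in replicate 1 and 215 in replicate 2, against 45207 and 49541 for Ppp3r1. Ppp3ca encodes the A alpha catalytic subunit (ENSMUSG00000028161.13, chromosome 3 from 136670124 to 136937727, plus strand). It was at 602 TPM in replicate 1 and 508 in replicate 2, a count ratio of 1.24 (1.22 to 1.26). Ppp3cb encodes the A beta subunit (ENSMUSG00000021816.6, chromosome 14 from 20499364 to 20546573, minus strand). Its 104 TPM in replicate 1 and 95.6 in replicate 2 gave a count ratio of 1.16 (1.12 to 1.20), so both catalytic genes were somewhat higher in replicate 1.

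Ppp3ca made up 85.3% of the TPM of both catalytic genes in replicate 1 and 84.2% in replicate 2 (84.7% ± 0.77, SD, n = 2). The third catalytic gene, Ppp3cc, best known from testis, had 19.9 TPM in replicate 1 and 19.0 in replicate 2. Ppp3r2, the B subunit gene of testis, had 0.52 TPM in replicate 1 and 0.45 in replicate 2. The B subunit RNA exceeded the summed catalytic RNA of Ppp3ca and Ppp3cb in both areas, with a ratio of 1.09 in replicate 1 and 1.35 in replicate 2 (1.22 ± 0.19). Summed over its 3 genes calcineurin stood at 1472 TPM in replicate 1 and 1422 in replicate 2, while the 4 CaMKII genes summed to 381 TPM in replicate 1 and 461 in replicate 2. Calcineurin RNA, with the B subunit gene counted in, was therefore 3.86 times CaMKII RNA in replicate 1 and 3.08 times in replicate 2. The catalytic genes Ppp3ca and Ppp3cb alone summed to 706 TPM in replicate 1 and 604 in replicate 2, a smaller excess over CaMKII. On the log2 scale CaMKII over calcineurin was -1.95 in replicate 1 and -1.62 in replicate 2, a mean of -1.79 ± 0.23 (SD, n = 2).

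Between the areas, log2 ratios of replicate 1 to replicate 2 were taken on TPM with 1 added, which understates the change of low genes. Of the 10 genes 4 were higher and 6 lower in replicate 1, with a median log2 ratio of -0.09, against -0.06 over 6466 protein-coding genes with a mean of 10 TPM or more. The median absolute log2 ratio was 0.28 for the 10 genes and 0.26 for the 6466. Camk2d, with a log2 ratio of -1.65, was the only one of the 10 beyond 1.5-fold. Of the 6466 genes 15.9% were beyond 1.5-fold in either direction and 10.5% were beyond it and lower in replicate 1, so a count of 1 in 10 is near that background. The next largest ratios were -0.56 for Camkk2, -0.46 for Camk2g and 0.46 for Camkv, and those of Ppp3ca, Ppp3cb, Camk2b, Camk4 and Ppp3r1 were 0.24, 0.12, 0.06, -0.09 and -0.09. Camk2a had -0.31 as deposited and -0.02 without the fragment Camk2a-207.

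**Figure D2:**
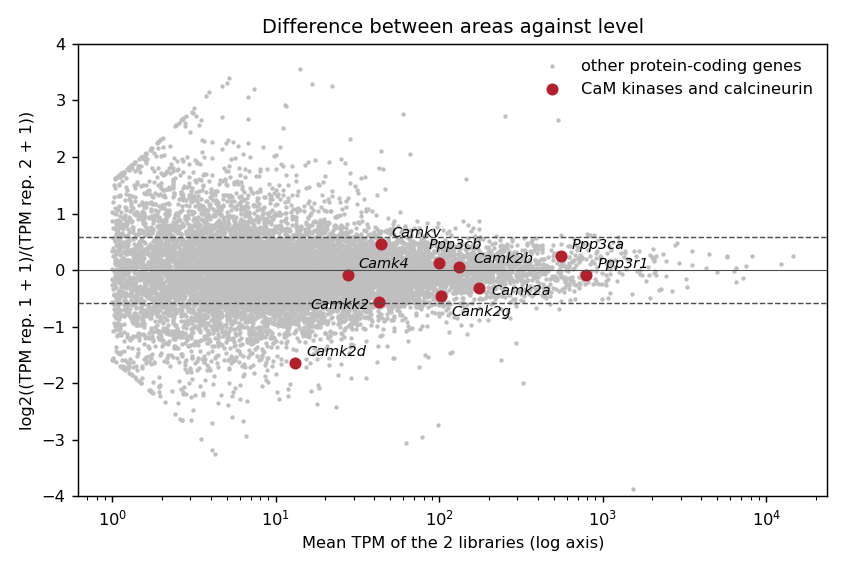
Log2 ratio of replicate 1 to replicate 2 (TPM with 1 added) against mean TPM (log axis) for the 10 genes (large points) and 11831 other protein-coding genes with a mean of 1 TPM or more, of which 11 lie outside the vertical axis. Dashed lines mark 1.5-fold, and Camk2d at -1.65 is the only large point beyond them.

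Cell type markers differed between the areas in the same direction as Camk2d for some types. All 8 oligodendrocyte markers were lower in replicate 1, where they summed to 562 TPM, against 986 TPM in replicate 2, and all 8 excitatory neuron markers were lower too, with sums of 203 TPM in replicate 1 and 326 in replicate 2. Erythrocyte markers summed to 16.01 TPM in replicate 1 and 586 in replicate 2, with 4 of 5 lower in replicate 1. Of the 5 precursor markers 3 were lower in replicate 1, with sums of 10.5 TPM there and 32.8 TPM in replicate 2. Most of these sums was Olig1, at 8.51 TPM in replicate 1 and 27.4 in replicate 2. Pdgfra was at 0.71 TPM in both, and Cspg4 was higher in replicate 1, at 0.31 TPM there and 0.12 in replicate 2. Microglial markers went the other way, at 263 TPM in replicate 1 and 88.01 in replicate 2, with 7 of 8 higher in replicate 1. The sums of endothelial and mural markers did so too, at 115 TPM in replicate 1 and 51.9 in replicate 2. Of these 8 markers 6 were higher in replicate 1 and Acta2 was listed at 0 in both. Pecam1 was lower in replicate 1, at 1.28 TPM there and 2.32 in replicate 2. Of the 8 astrocyte markers 5 were lower in replicate 1, with sums of 791 TPM there and 1010 TPM in replicate 2. The 10 GABAergic markers were split evenly by direction, with sums of 1637 TPM in replicate 1 and 3174 in replicate 2. The peptide gene Sst had 194 and 2859 TPM of these sums and the calcium buffer gene Pvalb 918 and 145 TPM. Beyond 2-fold, 3 GABAergic markers were higher in replicate 1, among them Pvalb, and 1 was lower, Sst. Most of the sum in replicate 2 was Sst. All 10 layer 5 markers were above 1 TPM in both areas, with sums of 3151 TPM in replicate 1 and 3869 in replicate 2. Most of these sums was Pcp4, at 2922 TPM in replicate 1 and 3599 in replicate 2. Of the 10 markers 4 were higher in replicate 1, 2 of them beyond 2-fold, and 6 were lower, 1 of them beyond 2-fold. The part of any of these cell types in the values of the 10 genes was not tested.

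The tables list 70 transcripts of the 10 genes, of which 48 had a count in either library and 22 were at 0 in both. Camk4 and Camkk2 have 1 transcript each in the tables. In all 8 other genes the leading transcript was the same in both areas. Over 4993 genes with 2 or more transcripts and a mean of 10 TPM or more, the leading transcript differed in 13.3%. For only 8 genes, a count of 0 that differ is near that share. The share of the leading transcript in its gene's TPM (IsoPct) differed between the areas by a median of 8.65 percentage points for the 8 genes and by 5.36 points over the 4993 genes. Of the 17 transcripts of these 8 genes that reached an IsoPct of 10 in either area, 11 had deposited TPM intervals that did not overlap between the areas. The same held for 44.7% of 11339 transcripts that reached this IsoPct in the 4993 genes, and the difference from that share was not tested. The level of these intervals is not stated, and they surround the authors' posterior mean TPM.

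**Figure D3:**
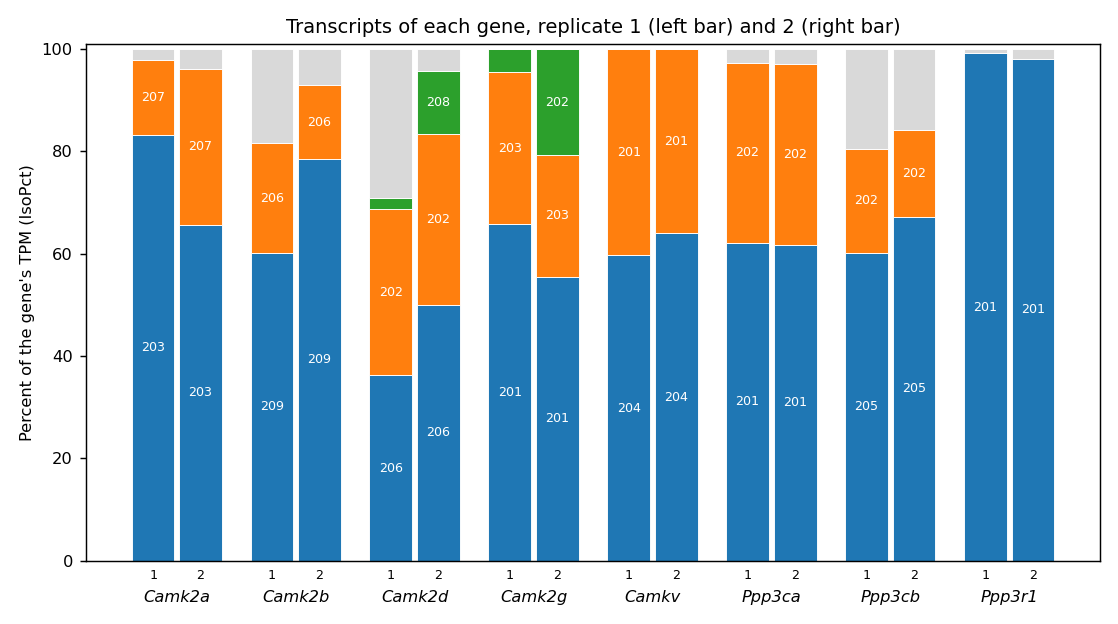
Percent of each gene's TPM given to its transcripts in replicate 1 (left bar) and replicate 2 (right bar), for the 8 genes with several transcripts; numbers are transcript suffixes and grey is the sum of transcripts under 10% in both. The blue leading transcript is the same in both areas for each gene, with 83.2% in replicate 1 and 65.6% in replicate 2 for Camk2a-203.

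Camk2a RNA was mostly Camk2a-203, which lacks the 33-base exon, with an IsoPct of 83.2 in replicate 1 and 65.6 in replicate 2. The level of Camk2a-203 was nearly equal, at 129 TPM in replicate 1 and 127 in replicate 2, and the fragment Camk2a-207 had an IsoPct of 14.6 in replicate 1 and 30.5 in replicate 2. Transcripts with the 33-base exon held 1.27% of the complete coding TPM of Camk2a in replicate 1 and 5.33% in replicate 2.

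Camk2b was led by Camk2b-209 with an IsoPct of 60.2 in replicate 1 and 78.5 in replicate 2, followed by Camk2b-206, which skips the 72-base exon, with 21.3 in replicate 1 and 14.4 in replicate 2. Among complete coding transcripts of Camk2b the 45-base exon was in 97.7% of the TPM in replicate 1 and 98.2% in replicate 2. The 72-base exon was in 78.1% in replicate 1 and 85.4% in replicate 2, and a 75-base exon in 90.2% in replicate 1 and 95.1% in replicate 2. By expected counts, which are not per length, these shares were 89.3% and 93.5%, and 94.5% and 97.6%. The 3′ untranslated region is 93 bases in Camk2b-206 and 2184 in Camk2b-209. Skipping of the 72-base exon and the short 3′ end thus cannot be told apart there. The 33-base exon of Camk2b occurs in Camk2b-208 alone, which held 7.50% of the complete coding TPM in replicate 1 and 0.345% in replicate 2. The 3 longer exons were thus in most Camk2b RNA in both areas, and the 33-base exon was in little of it.

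Camk2d was divided between Camk2d-206, with an IsoPct of 36.2 in replicate 1 and 50.0 in replicate 2, and Camk2d-202, with 32.6 in replicate 1 and 33.4 in replicate 2. These differ by the 60-base exon, which was in 50.2% of the complete coding TPM of Camk2d in replicate 1 and 59.5% in replicate 2. The 42-base exon was in 95.5% in replicate 1 and 99.3% in replicate 2. The transcript with the 33-base exon, Camk2d-205, was listed at 0 in both areas, while the authors' posterior mean estimates gave it 0.950% in replicate 1 and 0.296% in replicate 2. Transcripts with no complete or partial coding sequence held 28.1% of Camk2d TPM in replicate 1 and 15.9% in replicate 2, among them the retained-intron entry Camk2d-208 with an IsoPct of 2.02 in replicate 1 and 12.2 in replicate 2. In replicate 1 much of that share came from few counts on short entries. An entry of 618 bases had an IsoPct of 9.17 there from 6 expected counts. Another, of 746 bases, had 8.34 from 6.81 expected counts. The complete coding transcripts alone were at 4.22 TPM in replicate 1 and 17.2 in replicate 2, so the difference between areas for Camk2d was also present in them.

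Camk2g had 3 transcripts, all coding, and its 33-base exon was the most used of the family. Camk2g-201 carries the 33-base and the 69-base exon and had an IsoPct of 65.7 in replicate 1 and 55.5 in replicate 2. Camk2g-203 carries neither and had 29.8 in replicate 1 and 23.8 in replicate 2. Camk2g-202, with the 69-base exon alone, had 4.49 in replicate 1 and 20.7 in replicate 2. Its TPM was 3.86 in replicate 1 (deposited interval 0.90 to 6.72) and 24.5 in replicate 2 (15.3 to 33.2), while the intervals of Camk2g-201 and of Camk2g-203 overlapped between the areas. The 69-base exon was in 70.2% of Camk2g TPM in replicate 1 and 76.2% in replicate 2. Across the family, the 33-base exon was thus in 65.7% and 55.5% of Camk2g TPM, against 1.27% and 5.33% for Camk2a, 7.50% and 0.345% for the unrelated exon of Camk2b, and a listed 0 for Camk2d, in replicate 1 and replicate 2 in each case.

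Camkv had 2 transcripts above 0. Camkv-204 had an IsoPct of 59.7 in replicate 1 and 64.0 in replicate 2, and Camkv-201 had 40.3 and 36.04. A 76-base exon is in Camkv-201 and not in Camkv-204, but it is not their only difference. Camkv-201 has 11 exons and 1536 coding bases, against 9 exons and 1452 coding bases in Camkv-204. Both were higher in replicate 1, at 30.3 TPM there and 23.4 TPM in replicate 2 for Camkv-204, and at 20.5 and 13.2 TPM for Camkv-201, with intervals that did not overlap.

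**Figure D4:**
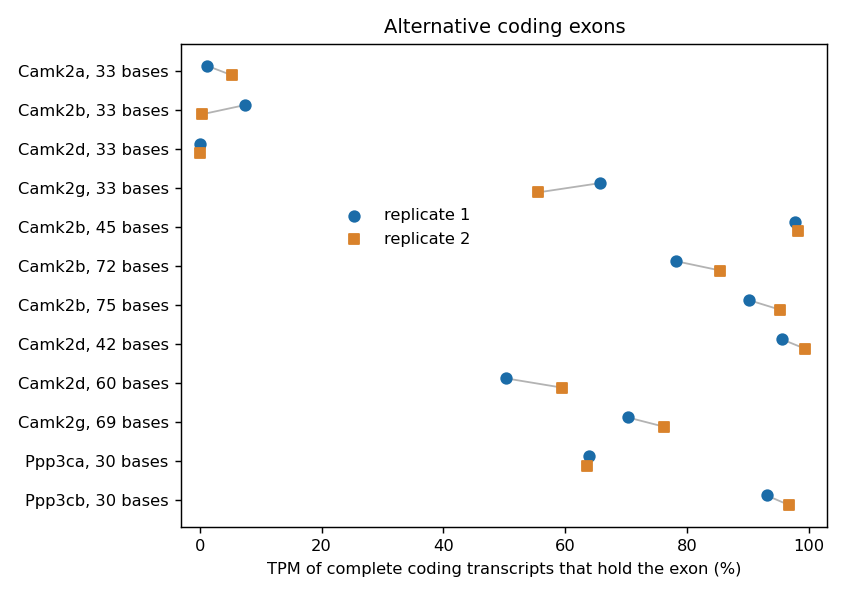
Percent of the TPM of each gene's complete coding transcripts that holds a named alternative exon, in replicate 1 (circles) and replicate 2 (squares). For Ppp3cb the transcript Ppp3cb-206 is left out. The 33-base exon stands at 65.7% and 55.5% in Camk2g and under 10% in the other CaMKII genes, and the 30-base exon near 64% in Ppp3ca and above 90% in Ppp3cb.

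In calcineurin, Ppp3ca-201 includes the 30-base exon and Ppp3ca-202 skips it. Ppp3ca-201 had an IsoPct of 62.2 in replicate 1 and 61.7 in replicate 2, and Ppp3ca-202 had 35.2 in replicate 1 and 35.4 in replicate 2. The exon was in 63.9% of the complete coding TPM of Ppp3ca in replicate 1 and 63.6% in replicate 2, a difference of 0.313 percentage points. By expected counts, which are not per length, the share was 44.3% in replicate 1 and 43.96% in replicate 2. The 3′ untranslated region is 554 bases in Ppp3ca-201 and 2502 bases in Ppp3ca-202. In this annotation the exon and the short 3′ end always occur together, so use of the exon and of the 3′ end cannot be told apart here.

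Ppp3cb used its version of the exon more. Among Ppp3cb-201, Ppp3cb-202 and Ppp3cb-205 the exon was in 93.0% of the TPM in replicate 1 and 96.6% in replicate 2. Both values were above those of Ppp3ca. The complete coding Ppp3cb-206, at 4.63 TPM in replicate 1 and 1.55 in replicate 2, was left out of these shares. The leading Ppp3cb-205 had an IsoPct of 60.2 in replicate 1 and 67.2 in replicate 2, and Ppp3cb-202 had 20.4 in replicate 1 and 17.0 in replicate 2. Complete coding TPM with the acceptor that skips 3 bases was that of Ppp3cb-205, at 66.1% in replicate 1 and 75.7% in replicate 2 (70.9% ± 6.79, SD, n = 2). The 3′ untranslated region is 1616 bases in Ppp3cb-205, against 2120 in Ppp3cb-202, 1454 in Ppp3cb-201 and 828 in Ppp3cb-206. Use of the acceptor and of the 3′ end thus cannot be told apart here. Noncoding entries held 8.97% of Ppp3cb TPM in replicate 1 and 11.2% in replicate 2, and the antisense gene 1810062O18Rik had 20.4 and 30.1 counts, which reads without a stated strand cannot be separated from Ppp3cb. Ppp3r1 was nearly all Ppp3r1-201, with an IsoPct of 99.2 in replicate 1 and 98.2 in replicate 2.

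The surrounding pathway was measured with 81 genes in 8 lists, of which 73 were at 1 TPM or more in both areas. Of the 75 with a summed count of 100 or more, 2 were beyond 2-fold, or 2.67%, against 9.34% of 11768 protein-coding genes with that count. Their median log2 ratio was -0.06, beside -0.04 over the 11768 genes, with 31 higher and 44 lower in replicate 1. Here and in the lists below, 2-fold was judged on TPM with 1 added, so changes of low genes can be missed.

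Upstream, the calmodulin gene Calm2 stood above all 10 genes, at 6294 TPM in replicate 1 and 6405 in replicate 2. Its value is uncertain because near-identical copies can share its reads. Pcp4, a small calmodulin-binding peptide, was at 2922 TPM in replicate 1 and 3599 in replicate 2. None of the 6 genes of this list was beyond 2-fold.

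Among 15 further CaM kinase family genes 13 were at 1 TPM or more in both areas and none was beyond 2-fold. Camk2n1, a protein inhibitor of CaMKII, was at 281 TPM in replicate 1 and 218 in replicate 2, above each CaMKII gene in both areas. Dclk1, a microtubule-binding kinase, was at 116 TPM in replicate 1 and 165 in replicate 2. Camk1, which is activated by CaM kinase kinases, was at 42.3 TPM in replicate 1 and 70.9 in replicate 2.

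Of 13 further calcineurin subunits, regulators and targets 9 were at 1 TPM or more in both areas, none was beyond 2-fold, and the transcription factor gene Nfatc4 was listed at 0 in both. Fkbp1a, the protein through which the drug FK506 inhibits calcineurin, led at 838 TPM in replicate 1 and 849 in replicate 2. Chp1, a calcineurin B-like protein, was at 88.5 TPM in replicate 1 and 106 in replicate 2. Rcan2, a binding regulator of calcineurin, was at 55.8 TPM in replicate 1 and 88.6 in replicate 2.

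Downstream of CaMKII, 11 of 12 synaptic partners and substrates were at 1 TPM or more in both areas and none was beyond 2-fold, with a median log2 ratio of -0.16. The NMDA receptor subunit genes Grin1 and Grin2b were at 81.7 and 67.4 TPM in replicate 1 and at 127 and 53.5 TPM in replicate 2, and the synaptic vesicle gene Syn1 was at 82.1 TPM in replicate 1 and 112 in replicate 2. In the arm of CaM kinase IV and CREB all 8 genes were at 1 TPM or more, led by Crem, a CREB-related factor, at 39.6 TPM in replicate 1 and 84.8 in replicate 2. Crem was beyond 2-fold, with a count ratio of 0.463 (exact 95% interval 0.425 to 0.504), while the coactivator genes Crebbp, at 22.5 and 22.9 TPM, and Crtc1, at 10.5 and 14.3 TPM, were not.

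In the AMP-activated kinase arm of Camkk2, 7 of 8 genes were at 1 TPM or more in both areas and none was beyond 2-fold. The regulatory subunit genes Prkag1 and Prkag2 were at 44.9 and 13.4 TPM in replicate 1 and at 44.9 and 14.8 TPM in replicate 2, and the kinase gene Stk11 was at 16.9 TPM in replicate 1 and 19.9 in replicate 2. All 9 calcineurin substrates were at 1 TPM or more and none was beyond 2-fold. Ppp1r1a, an inhibitor of protein phosphatase 1, was at 200 TPM in replicate 1 and 119 in replicate 2, the transcription factor gene Mef2c at 157 and 160 TPM, and the endocytosis gene Dnm1 at 119 and 151 TPM.

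The 10 other serine/threonine phosphatase genes were all at 1 TPM or more in both areas. The catalytic genes Ppp1ca, at 247 TPM in replicate 1 and 320 in replicate 2, Ppp1cc, at 113 and 105 TPM, and Ppp2ca, at 81.6 and 104 TPM, stood below Ppp3ca in both areas. Ppp5c, which encodes protein phosphatase 5, was beyond 2-fold, at 34.7 TPM in replicate 1 and 71.4 in replicate 2, with a count ratio of 0.522 (0.490 to 0.557).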

How the data were processed

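The authors deposited, per the file headers, an expected count, TPM, FPKM (not used here), posterior means and interval bounds for each gene and transcript, and IsoPct, the percent of a gene's TPM given to a transcript. Assembly mm10 and annotation M4 are named in the deposited text files. The program, aligner and strand setting are not given in the sources used here. Members, lists and rules were chosen with earlier results of these data known. Named were the 10 genes, their transcripts at an IsoPct of 10 or more, and of each pathway list the 3 genes of highest mean TPM and those beyond 2-fold with 100 or more counts. A gene that the rule names in the list of calmodulins and calmodulin-binding peptides is not reported here.

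Symbols, exons and sequences came from GENCODE M21. All 70 transcripts matched by identifier and 53 had the same length; apart from Camk4-201 the named ones differed by at most 172 bases. Exon pairs of unequal length were aligned globally with Biopython 1.88, and exon shares were summed over complete coding transcripts. For the 30-base exon of Ppp3cb, Ppp3cb-206 was left out. Spike-ins and other names outside the genes held 7.19% of counts in replicate 1 and 7.94% in replicate 2, and 26248 rows named by a number held under 0.001% and were left out. Chi-square per degree of freedom between the libraries came to 69.5 for the 14137 genes that had 50 or more counts in all, so they are not copies. Expected counts were rounded for edgeR 4.0.16 (R 4.3.3), used only for TMM-scaled counts (CPM) as an alternative. Tables were made with Python 3.11.15, pandas 2.3.3 and scipy 1.17.1, and the interval calculation was tested on simulated data.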

Additional observations from a re-analysis of the deposited data

How the results depend on the processing

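Of 41 alternative values of the family and member summaries, 4 moved, all of them family shares or ratios that moved by more than the SD. With n = 2 the value of a single area always lies within that SD, so single-area values of the family summaries could not move. Member summaries were judged by a limit of 1.5-fold or of 0.1 on the log2 scale. Among these summaries a reversal was defined only for CaMKII over calcineurin, which did not reverse. For the log2 ratio of a single gene it was defined only beyond 1.5-fold, here for Camk2d, which did not reverse. The share of Camk2a in CaMKII was 43.9% with library-scaled expected counts (CPM) and, in an alternative chosen after seeing the data, 35.5% with complete coding transcripts alone. The share of Ppp3ca in the catalytic TPM was 85.7% with complete coding transcripts alone. CaMKII over calcineurin was -1.45 on the log2 scale with library-scaled expected counts (CPM). From a single area these values ranged from 40.8% to 41.97% for Camk2a, 84.2% to 85.3% for Ppp3ca, 1.09 to 1.35 for the B subunit over the catalytic subunits, and -1.95 to -1.62 for CaMKII over calcineurin. All 10 genes passed 1 TPM in either area alone.

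With TMM-scaled counts the log2 ratio was 0.004 for Camk2a and -0.04 for Camk2b, each with its sign turned, and -1.84 for Camk2d. Posterior mean TPM gave -1.43 for Camk2d. Rescaling TPM to nuclear genes without spike-ins raised levels, for example to 1024 TPM for Ppp3r1. The M21 length gave a mean of 128 TPM for Camk4, chosen after seeing the data. The causes were not tested, beyond the change of unit, transcripts or length that each alternative makes. No paired analysis was possible because there is 1 group. Groups of 2 libraries allow no outlier check.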
